A study of Mus musculus with 4 samples.

Results

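Bdnf, Ntf3, Ntrk2, Ntrk3 and Sort1 encode the neurotrophins brain-derived neurotrophic factor and neurotrophin-3, the Trk receptors TrkB and TrkC, and the sorting receptor sortilin. They were taken by symbol from the gene list of the count matrix, and all 5 members were among its 32287 features. Their unique molecular identifiers (UMIs, each standing for 1 captured RNA molecule) were summed over classes of nuclei that were named from marker genes. The nuclei came from the medial prefrontal cortex of C57BL/6J mice aged 9 weeks, taken 24 h after DOI, a psychedelic serotonin receptor agonist, or after saline. The DOI group held 2 samples and the saline group held 2 samples, with 1 female and 1 male sample in each. All 4 samples carried scFLARE2, a light- and calcium-gated transcription tool, and its reporter TRE-mCherry-p2a-bReaChES, in which mCherry is a red fluorescent protein and bReaChES a light-gated channel. The promoter of the tool, and whether animals were pooled, are not given in the sources used here.

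The deposited matrix pooled 4 libraries, told apart by a number at the end of each barcode, and which number belonged to which sample could not be settled from the labels or the files. The matrix was therefore treated as 1 sample: DOI was not compared with saline, and no p-value is given. Each interval below covers counting error only, at 95%. After filtering, 12981 nuclei remained, with 4187, 3474, 1573 and 3747 nuclei in libraries 1 to 4. Before filtering, the libraries held 19968985 to 57947155 UMIs over all their barcodes. Among the nuclei kept, 17 barcode sequences occurred in more than 1 library. Clustering without the 5 members gave 19 named classes: 8 excitatory subclasses, 4 inhibitory subclasses, 2 other neuronal classes and 5 glial classes. In all, 8301 nuclei were excitatory (17 of them without a subclass), 1325 inhibitory and 2606 non-neuronal, and 335 medium spiny-like nuclei came mostly from libraries 1 and 2, with 1 from library 4. Names end in "-like" because they rest on markers, of which 3 to 8 were enriched in each named cluster. IT, ET, NP and CT stand for intratelencephalic, extratelencephalic, near-projecting and corticothalamic neurons. The L5 IT-like, the L5 ET-like and 1 of the 2 L6 CT-like clusters had 3, 6 and 5 of their own markers enriched but, among their 10 leading genes, 1 marker of another subclass and none of their own. A gene was tested where at least 100 UMIs were counted in the comparison, and called higher or lower where the ratio of CPM (counts scaled to an equal total of UMIs in every class) was at least 2 or at most 0.5, and all 4 libraries had the same sign. Such calls describe a size and involve no statistical test.

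Neurotrophins are made as precursors, cut to the mature form and secreted. BDNF signals mainly through TrkB and neurotrophin-3 mainly through TrkC, both receptor tyrosine kinases that recruit adaptor proteins, while sortilin binds precursor neurotrophins and steers their sorting and release. In cortex, transcription of Bdnf is driven by neuronal activity, and TrkB is made both as a full-length kinase and, above all in astrocytes, as a truncated form without the kinase. UMIs counted per gene did not separate these forms, nor the alternative first exons of Bdnf, and levels are compared below between classes within a gene, never between genes.

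The Bdnf gene lies at chr2:109674700-109727007 on the plus strand of mm10, and RefSeq gave 7 promoter windows (250 bases before to 50 after a start) for it. One of them held the octamer TCACGTCA, known from work on rat and mouse Bdnf as a calcium-responsive element of the activity-driven promoter. The octamer, searched on both strands, was in 0.441% of 32851 RefSeq windows of mouse (GRCm38.p6), the full cyclic AMP response element TGACGTCA in 1.79% and the E-box CACGTG in 7.15%. The other 6 Bdnf windows held none of these motifs. The first of 2 windows of Ntf3, whose gene lies at chr6:126101412-126166910 on the minus strand, held the E-box, and the Ntrk2 window held none. The 250 bases before the start are printed for both matching windows, because they are the ligand windows with a match, and the Bdnf octamer is the element best known for its response to activity. Capitals mark the motif, and the strands are plus for chr2:109692186-109692435 and minus for chr6:126166745-126166994.
Bdnf: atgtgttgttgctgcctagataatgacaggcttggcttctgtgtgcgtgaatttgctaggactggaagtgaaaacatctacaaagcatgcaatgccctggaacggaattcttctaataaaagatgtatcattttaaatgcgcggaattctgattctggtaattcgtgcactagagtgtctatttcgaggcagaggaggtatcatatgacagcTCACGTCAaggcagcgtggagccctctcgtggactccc
Ntf3: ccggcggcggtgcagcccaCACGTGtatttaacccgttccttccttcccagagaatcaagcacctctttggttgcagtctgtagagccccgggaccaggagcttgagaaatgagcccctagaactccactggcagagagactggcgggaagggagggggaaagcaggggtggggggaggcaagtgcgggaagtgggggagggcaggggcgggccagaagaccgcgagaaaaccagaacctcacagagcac
The matches describe the letters only; the data do not show which start was used.

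**Figure D1:**
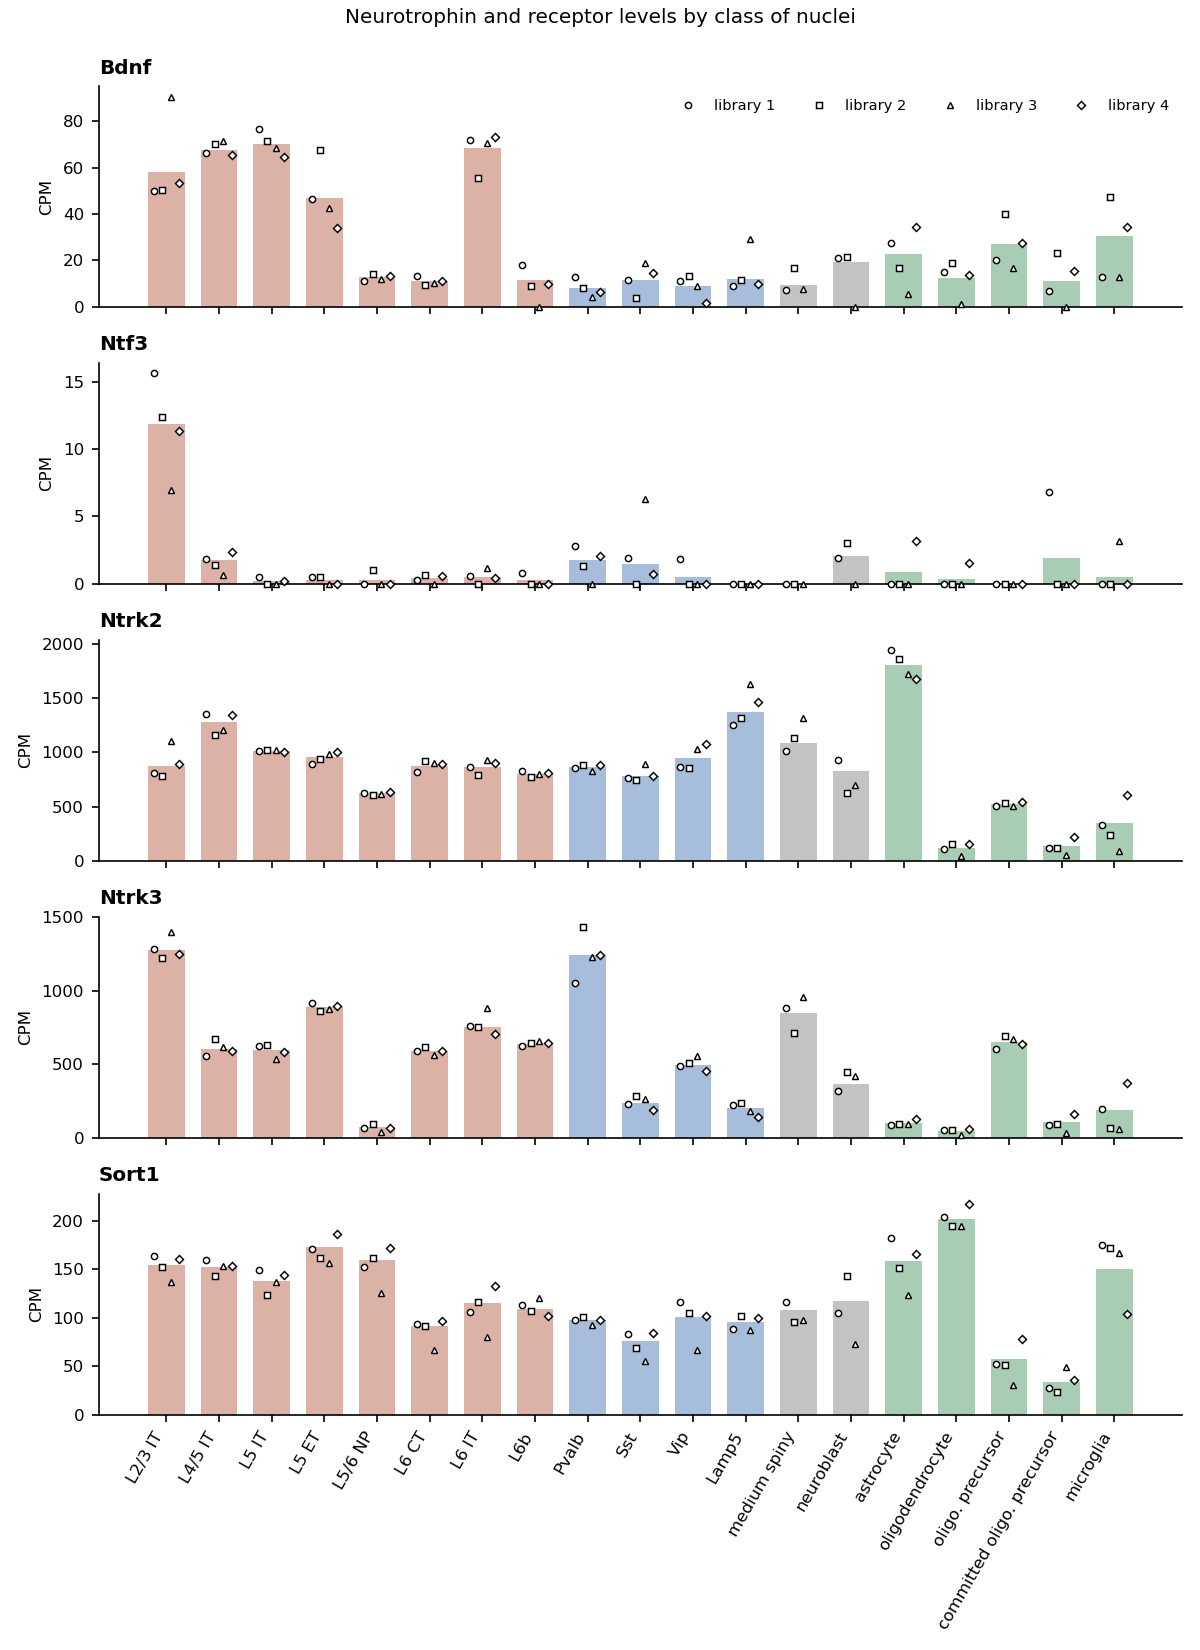
Level of each gene (vertical axis, CPM, linear from 0) in the 19 named classes of nuclei (horizontal axis), with excitatory classes in red, inhibitory in blue, other neuronal in grey and glial in green. Bars give the pooled level and symbols the libraries that held at least 10 nuclei of the class. Bdnf stood highest in the IT- and ET-like classes, Ntf3 in L2/3 IT-like nuclei, Ntrk2 in astrocyte-like nuclei, Ntrk3 in L2/3 IT-like and Pvalb-like nuclei, and Sort1 in oligodendrocyte-like nuclei.

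Bdnf was higher in excitatory than in inhibitory nuclei, and excitatory classes formed a high and a low set. Excitatory nuclei had 45.0, 45.9, 55.5 and 41.9 CPM in libraries 1 to 4, against 11.7, 7.99, 10.4 and 8.88 CPM in inhibitory nuclei. The lowest excitatory library stood above the highest inhibitory library. The pooled levels were 45.5 and 9.59 CPM (4587 and 123 UMIs), a log2 ratio of 2.25 (1.99 to 2.52). Of the 5 members tested, Bdnf alone was called higher in excitatory than in inhibitory nuclei, where 9.12% of all genes tested were.

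Among excitatory nuclei the pooled level of Bdnf was 70.1 CPM in L5 IT-like, 68.4 in L6 IT-like, 67.7 in L4/5 IT-like, 58.2 in L2/3 IT-like and 47.1 in L5 ET-like nuclei. It was 12.9 CPM in L5/6 NP-like, 11.5 in L6b-like and 11.3 in L6 CT-like nuclei. The deep-layer L6 IT-like nuclei had 71.9, 55.5, 70.8 and 73.2 CPM in libraries 1 to 4. The L6 CT-like nuclei, which share that layer, had 13.5, 9.65, 10.1 and 11.2 CPM. The lowest library of any IT- or ET-like class, 34.1 CPM in L5 ET-like nuclei, stood above the highest library of the 3 low classes, 18.0 CPM in L6b-like nuclei. Against the other excitatory subclasses the log2 ratio was -2.32 (-2.50 to -2.15) in L6 CT-like, -2.03 (-2.50 to -1.60) in L6b-like and -1.86 (-2.30 to -1.46) in L5/6 NP-like nuclei. With the settings used here, no IT-like class reached the ratio of 2 to the other subclasses, which included the remaining IT-like ones, and the highest log2 ratio was 0.78 (0.69 to 0.88) in L5 IT-like nuclei. Other settings gave a call, but against fewer named subclasses. The ratio in L2/3 IT-like nuclei was 2.26 with a mitochondrial limit of 20%, against 0.43. With that limit L4/5 IT, L5 IT, L5 ET and L6 IT had no name. The other subclasses were then the low L5/6 NP-, L6 CT- and L6b-like ones. In L6 IT-like nuclei the ratio was 1.20 with doublets kept and 1.14 at clustering resolution 0.5, against 0.70. In both of these settings L4/5 IT and L5 IT had no name.

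Bdnf was unevenly spread among nuclei of the same class. In L5 IT-like nuclei, 416 of 1169 nuclei (35.6%, exact binomial interval 32.8 to 38.4%) had at least 1 Bdnf UMI. The 67 nuclei with at least 5 UMIs, 5.73% of the class, held 50.9% of its Bdnf UMIs, and 1 nucleus held 34. In L2/3 IT-like nuclei the 4.15% of nuclei with at least 5 UMIs held 49.1% of the UMIs. The share of such nuclei was 3.83% in L6 IT-like, 3.96% in L4/5 IT-like and 2.73% in L5 ET-like nuclei. In L6 CT-like nuclei, 241 of 2348 had a Bdnf UMI, none had more than 4, and 0 of 2348 nuclei with at least 5 allows a share of up to 0.128%. Library 3 stood apart for Bdnf in L2/3 IT-like nuclei, at 90.6 CPM against 49.9, 50.2 and 53.2 CPM in libraries 1, 2 and 4. There, 10.1% of its 188 nuclei had at least 5 Bdnf UMIs, against 2.79, 3.01 and 3.74% in libraries 1, 2 and 4.

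**Figure D2:**
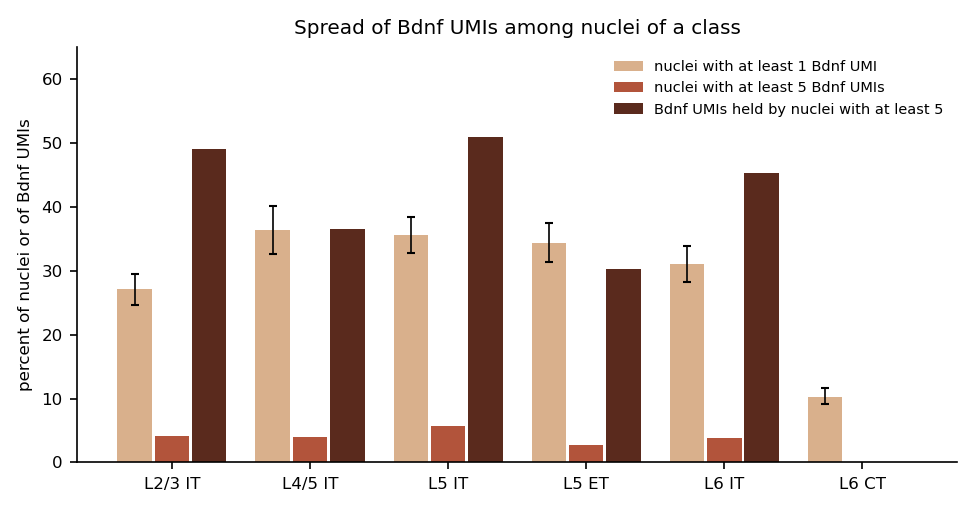
Percent of nuclei with at least 1 Bdnf UMI (with exact binomial 95% intervals), percent of nuclei with at least 5, and percent of the class's Bdnf UMIs held by the nuclei with at least 5 (vertical axis), in 6 excitatory classes (horizontal axis). Between 2.73 and 5.73% of nuclei of the IT- and ET-like classes held 30.3 to 50.9% of the Bdnf UMIs, and no L6 CT-like nucleus had 5.

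Non-neuronal nuclei, which served as a check on free RNA, also had Bdnf UMIs. At 1500 UMIs per nucleus, the share of nuclei with a Bdnf UMI was 9.00% in L5 IT-like, 8.70% in L4/5 IT-like, 8.53% in L6 IT-like, 6.55% in L5 ET-like and 5.58% in L2/3 IT-like nuclei. It was 2.51% in L5/6 NP-like, 1.76% in L6 CT-like, 1.32% in L6b-like and 1.51% in all inhibitory nuclei. In non-neuronal nuclei it was 2.90%, and the shares in the NP-, CT- and L6b-like and inhibitory nuclei were no higher than that. Whether the UMIs of these nuclei came from free RNA was not tested. Without thinning, the share was 24.2% in excitatory, 8.08% in inhibitory and 6.37% in non-neuronal nuclei, at median depths of 10903.0, 8736.0 and 3039.5 UMIs. Neurons (excitatory and inhibitory nuclei together) had 41.5 CPM against 21.3 CPM in non-neuronal nuclei, a log2 ratio of 0.96 (0.76 to 1.17), just short of the limit. It was 1.17 without library 2 and also without library 4, and 2.15 where nuclei with over 1% mitochondrial UMIs were left out. It was 1.01 both with the automatic doublet threshold and at resolution 2.0, and all of these were called higher. The 5 glial classes, which should lack the vesicular glutamate transporter gene Slc17a7, had 135.5 to 232 CPM of it, against 188 to 278 CPM in the 8 excitatory subclasses. Microglia-like nuclei were highest of the glia for it. The part of neuronal RNA in the glial values was not tested.

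Ntf3 was found mostly in 1 class. L2/3 IT-like nuclei had 15.6, 12.4, 6.99 and 11.3 CPM in libraries 1 to 4. No library of another named class reached the lowest of these, but 2 came close on few UMIs. They were committed precursor-like nuclei in library 1 (6.83 CPM, 1 UMI) and Sst-like nuclei in library 3 (6.32 CPM, 3 UMIs). Outside the named classes, the 17 excitatory nuclei without a subclass had 11.5 CPM (5 UMIs) and an unnamed cluster of 27 nuclei had 16.8 CPM (7 UMIs). The pooled level was 11.9 CPM in L2/3 IT-like nuclei (190 of the 267 Ntf3 UMIs of all nuclei) against 0.475 CPM in the other excitatory subclasses, a log2 ratio of 4.64 (4.15 to 5.17), a 25.0-fold difference. It was the 1 of 5 members called higher in L2/3 IT-like nuclei, where 3.54% of all genes were. L4/5 IT-like nuclei followed among excitatory subclasses, with 1.74 CPM (14 UMIs). Levels were 0.181 CPM in L5 IT-like (3 UMIs), 0.273 in L5 ET-like (4 UMIs), 0.258 in L5/6 NP-like (1 UMI), 0.446 in L6 CT-like (11 UMIs), 0.473 in L6 IT-like (6 UMIs) and 0.267 in L6b-like nuclei (1 UMI). These 6 classes were called lower for Ntf3, and the comparison group of each held the L2/3 IT-like nuclei. The log2 ratio was -3.90 (-6.19 to -2.34) in L5 IT-like nuclei and -5.01 without library 1, -3.20 (-8.51 to -0.71) in L5/6 NP-like nuclei and -2.60 without library 4, and -3.15 (-8.46 to -0.66) in L6b-like nuclei and -2.52 without library 2. In L5 ET-like nuclei it was -3.27. It was -0.61 and not called among nuclei with at least 1000 genes, where the clusters were formed anew and L5 IT had no name. Pvalb-like nuclei had 1.75 CPM (10 UMIs). Lamp5-like, medium spiny-like and oligodendrocyte precursor-like nuclei had no Ntf3 UMI, which allows up to 2.79, 1.15 and 1.66 CPM in these 3 classes.

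Over the 8 excitatory comparisons, 1 call of 40 was higher and 10 were lower, and 6 of the 10 were Ntf3. In L5/6 NP-like nuclei Bdnf, Ntf3 and Ntrk3 made 3 of 5 members lower, beside 9.9% of all genes tested. In L6 CT-like and L6b-like nuclei Bdnf and Ntf3 made 2 of 5 lower, beside 7.83% and 8.86% of genes. In L5 IT-, L5 ET- and L6 IT-like nuclei Ntf3 alone was lower, beside 3.96%, 6.7% and 4.91%. In L4/5 IT-like nuclei 0 of 5 members were called, beside 8.41% of genes in either direction. Among nuclei with at least 1000 genes, clustered anew and without a named L5 IT class, Ntf3 was called lower there (-1.47, against -0.43).

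The share of L2/3 IT-like nuclei with an Ntf3 UMI was 11.8%, and it was 0.153% of non-neuronal nuclei. At 1500 UMIs per nucleus it was 1.41% in L2/3 IT-like nuclei and 0.305% in L4/5 IT-like nuclei. Neurons had 2.22 CPM against 0.530 CPM in non-neuronal nuclei, a log2 ratio of 2.07 (0.83 to 3.70) that rests on 5 non-neuronal UMIs and was 3.0 without library 4. It was no longer called as a mean over nuclei (2.1), with a mitochondrial limit of 1% (1.26) or with doublets kept (0.88). Excitatory nuclei had 2.33 CPM against 1.33 CPM in inhibitory nuclei (0.82, 0.11 to 1.62), below the ratio required. This comparison was called higher without library 1 (1.04), as a mean over nuclei (1.13) and with the automatic doublet threshold (1.12).

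**Figure D3:**
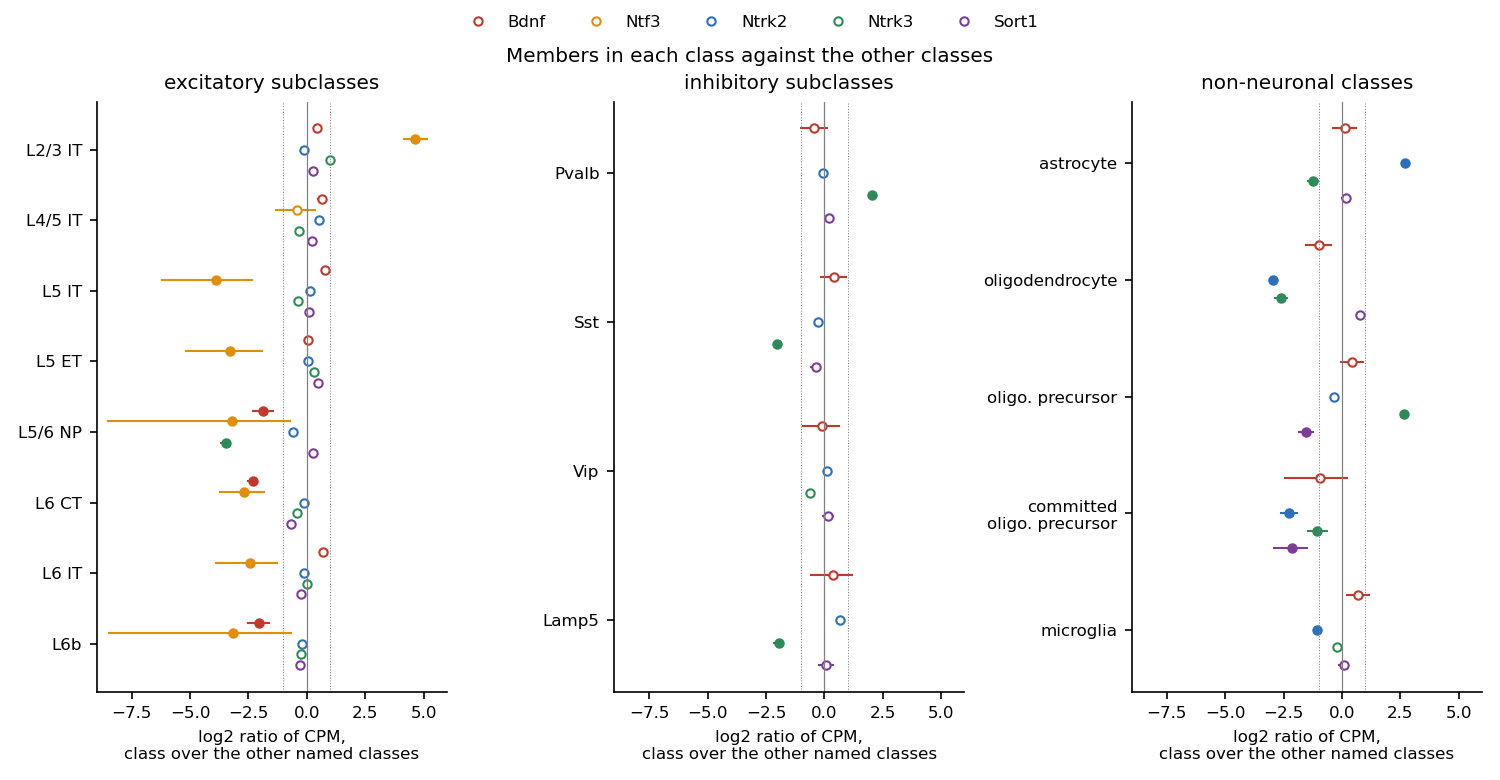
Log2 ratio of CPM in each class over the other named classes of its kind (horizontal axis), by class (vertical axis), for the 5 genes, with 95% counting intervals. Filled points were called higher or lower, open points were not, dotted lines mark the ratios of 2 and 0.5, and genes with under 100 UMIs in the comparison are left out. Ntrk3 was called in 3 of 4 inhibitory subclasses, and Ntrk2 and Ntrk3 were called on opposite sides of 0 in astrocyte-like nuclei.

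Ntrk2, the gene of TrkB, was found in all neuronal classes and was highest in astrocyte-like nuclei. Astrocyte-like nuclei had 1940, 1860, 1720 and 1680 CPM in libraries 1 to 4. The pooled level was 1804 CPM in astrocyte-like nuclei against 280 CPM in the other glial classes together, a log2 ratio of 2.69 (2.61 to 2.76). Every astrocyte library stood above every library of every other class. Oligodendrocyte-like nuclei had 109, 155, 41.2 and 154 CPM, the lowest pooled level of the 19 classes (115 CPM; log2 ratio -2.94, -3.10 to -2.78). Committed precursor-like nuclei had 139 CPM (-2.27, -2.62 to -1.94), whereas oligodendrocyte precursor-like nuclei had 524 CPM with libraries between 504 and 539 CPM. Microglia-like nuclei had 331, 236, 86.5 and 603 CPM, a wider spread than in the other glial classes. Their ratio of -1.05 was short of the limit without library 2 (-0.78) or library 3 (-0.91). The same held with doublets kept (-0.76) or with at least 1000 genes per nucleus (-0.96). In the other direction, the ratio was -1.95 at 1500 UMIs per nucleus, and its lowest value with a library left out was -1.63. The excitatory marker Slc17a7 stood in microglia-like nuclei at 270.1 CPM in library 4, against 141 to 255 CPM in the other 3.

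Neurons had 925 CPM of Ntrk2 against 637 CPM in non-neuronal nuclei (0.54, 0.50 to 0.58), and excitatory nuclei had 930 CPM against 893 CPM in inhibitory nuclei (0.06, 0.03 to 0.09). No neuronal subclass passed the ratio of 2 for Ntrk2, but with a mitochondrial limit of 1% L6 CT-like nuclei were called lower (-1.08, against -0.11). The highest were Lamp5-like interneurons, which include neurogliaform cells, with 1250 to 1630 CPM over the libraries, and L4/5 IT-like nuclei, with 1160 to 1350 CPM. These neighbours in the order overlapped. The 2 L6 CT-like clusters, pooled above, stood at 1143 CPM (880 nuclei) and 744 CPM (1468 nuclei). L5/6 NP-like nuclei were lowest among neurons, with 624, 605, 611 and 634 CPM, below every library of the other excitatory subclasses. Of 18 pairs of neighbours in the order of 19 classes, 4 did not overlap in their libraries for Ntrk2, 5 for Ntrk3, 1 each for Ntf3 and Sort1 and 0 for Bdnf. On the opposite strand of Ntrk2 (chr13:58806569-59133970, plus strand) lie 2 other genes of the list, Gm47423 with 9519 UMIs and 4930415C11Rik with 17934, against 115373 UMIs of Ntrk2. Whether the counting used the strand is not given in the sources used here.

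Ntrk3, the gene of TrkC, was higher in neurons than in non-neuronal nuclei and differed among subclasses of both kinds of neuron and of glia. Neurons had 738, 766, 801 and 717 CPM in libraries 1 to 4, against 202, 185, 155 and 284 CPM in non-neuronal nuclei. The ranges were far apart, and the pooled log2 ratio was 1.81 (1.75 to 1.88). With Ntf3, it made 2 of 5 members called higher in neurons than in non-neuronal nuclei, where 14.0% of all genes were. Excitatory and inhibitory nuclei as a whole overlapped for Ntrk3 (749 against 722 CPM, with 2 libraries on each side).

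Within inhibitory nuclei, Pvalb-like interneurons, the fast-spiking basket and chandelier cells, had 1050, 1430, 1230 and 1240 CPM of Ntrk3. Sst-like interneurons had 228, 283, 266 and 187 CPM and Lamp5-like 220, 235, 184 and 140 CPM. Vip-like interneurons lay between, with 490, 506, 557 and 454 CPM, and overlapped neither side. The log2 ratio to the other inhibitory subclasses was 2.04 (1.97 to 2.11) in Pvalb-like, -2.02 (-2.12 to -1.92) in Sst-like and -1.95 (-2.15 to -1.76) in Lamp5-like nuclei. Ntrk3 was the 1 member of 4 tested that was called in each of these comparisons, beside 3.42% of genes called higher in Pvalb-like, 3.82% called lower in Sst-like and 7.41% called lower in Lamp5-like nuclei. The Lamp5-like ratio was not called with a mitochondrial limit of 1% (-2.07). In Vip-like nuclei 0 of 4 members were called, beside 9.78% of genes in either direction.

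Within excitatory nuclei, L2/3 IT-like nuclei had the highest level of Ntrk3, with 1280, 1220, 1400 and 1250 CPM against a pooled 648 CPM in the other subclasses. The log2 ratio of 0.98 (0.96 to 1.00) was just short of the limit. It was called higher without library 2 (1.02), as a mean over nuclei (1.02) and at resolution 2.0 (1.03). It was also called higher with a mitochondrial limit of 1% (1.04) or 20% (1.24) and with at least 1000 genes per nucleus (1.01). In these last settings at least 1 other excitatory subclass had no name, so the comparison group differed. Among excitatory subclasses, L2/3 IT-like nuclei held the highest level both of Ntf3 and of the gene of its receptor. L5/6 NP-like nuclei had 68.0, 90.5, 41.6 and 63.7 CPM, against 775 CPM in the other subclasses (-3.48, -3.66 to -3.31). At 1500 UMIs per nucleus, 5.71% of L5/6 NP-like nuclei had an Ntrk3 UMI, against 6.90% of oligodendrocyte-like and 80.2% of L2/3 IT-like nuclei. Of the other glia, it was 10.95% of astrocyte-like, 10.53% of microglia-like, 11.83% of committed precursor-like and 58.76% of precursor-like nuclei. Whether the near-projecting UMIs came from free RNA was not tested.

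Within glia, Ntrk3 was highest in oligodendrocyte precursors. Precursor-like nuclei had 605, 692, 672 and 635 CPM, against a pooled 101 CPM in the other glial classes (2.68, 2.54 to 2.81). Astrocyte-like nuclei had 88.3, 96.2, 91.1 and 127 CPM, oligodendrocyte-like nuclei 49.7, 54.5, 20.6 and 59.5 CPM and committed precursor-like nuclei 88.8, 92.7, 29.1 and 158 CPM. No library of these 3 classes reached the lowest precursor library. The log2 ratio of Ntrk3 was -2.60 (-2.86 to -2.35) in oligodendrocyte-like, -1.23 (-1.44 to -1.03) in astrocyte-like and -1.05 (-1.46 to -0.66) in committed precursor-like nuclei, the last of which was -0.90 and no longer called without library 3. At 1500 UMIs per nucleus the ratio was -0.97 in astrocyte-like and -0.91 in committed precursor-like nuclei, and neither was called. The same held as a mean over nuclei (-0.83 and -0.79) and with the automatic doublet threshold (-0.74 and -0.73). With at least 1000 genes per nucleus the committed precursor-like ratio was -0.98 and not called. Further settings covered both classes. Neither was called with doublets kept (-0.56 and -0.38) or with a mitochondrial limit of 20% (-0.99 and -0.56). Microglia-like nuclei had 193, 63.3, 57.6 and 374 CPM of Ntrk3, and their ratio was -0.19 as reported. It was called lower at 1500 UMIs (-1.11), as a mean over nuclei (-1.16) and with a mitochondrial limit of 20% (-1.57). It was also called lower with the automatic doublet threshold (-2.06) and at resolution 2.0 (-2.33). With each library left out it ran from -0.94 to 0.2 and was not called. Precursors combined Ntrk3 at a neuronal level with a middle level of Ntrk2, and both were low at the committed and mature stages.

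Sort1, the gene of sortilin, was highest in mature oligodendrocyte-like nuclei and lowest at the stages before them. Oligodendrocyte-like nuclei had 204, 195, 194 and 217 CPM. Precursor-like nuclei had 51.9, 50.9, 30.4 and 77.5 CPM and committed precursor-like nuclei 27.3, 23.2, 48.6 and 35.8 CPM. The mature class lay above every library of every other class. Its log2 ratio to the other glial classes was 0.79 (0.63 to 0.95), short of the limit, while precursor-like (-1.53, -1.84 to -1.24) and committed precursor-like nuclei (-2.15, -2.91 to -1.48) were called lower. Neurons had 128 CPM against 143 CPM in non-neuronal nuclei (-0.17, -0.25 to -0.08). Excitatory nuclei had 134, 128, 118 and 139 CPM, against 94.8, 92.2, 77.7 and 93.6 CPM in inhibitory nuclei (0.53, 0.45 to 0.62). Among excitatory subclasses Sort1 ran between 91.1 CPM in L6 CT-like and 173 CPM in L5 ET-like nuclei, and none was called.

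The glial calls read as follows against all genes. Astrocyte-like nuclei had 1 of 4 members higher and 1 lower, beside 9.1% and 17.1% of genes. Precursor-like nuclei had 1 higher and 1 lower, beside 7.42% and 14.0%. Oligodendrocyte-like nuclei had 2 lower beside 21.8%, committed precursor-like nuclei 3 lower beside 22.0%, and microglia-like nuclei 1 lower beside 13.9%.

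Other genes of the pathway were taken from 5 lists with 55 genes in all. Of all genes tested, 9.12% were higher and 7.53% lower in excitatory than in inhibitory nuclei, and 14.0% were higher and 25.0% lower in neurons than in non-neuronal nuclei. Of 8 other ligands and receptors, 5 were tested between excitatory and inhibitory nuclei, and 1 was higher. It was Sorl1, a relative of sortilin, at 179 CPM in excitatory against 87.3 CPM in inhibitory nuclei (1.04). In neurons against non-neuronal nuclei, 2 of the 5 were higher, the sortilin relatives Sorcs3 (1.59) and Sorcs2 (1.06), and 0 lower. Of 8 genes of proneurotrophin processing and release, 3 were higher in excitatory nuclei and none lower. These were the proprotein convertases Pcsk5 (2.16) and Pcsk1 (1.19) and Plat (1.66), the tissue plasminogen activator, which yields the protease that cuts precursor BDNF outside the cell. The list's median log2 ratio was 0.46, against -0.13 over all genes tested. In neurons against non-neuronal nuclei, 3 of the 8 were higher, Pcsk5 (2.53), Pcsk1 (2.06) and Cadps2 (1.79), a dense-core vesicle priming factor, and the list's median was 0.63 against -0.40.

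Of 17 Trk adaptors and signalling genes, 0 were higher and 1 was lower in excitatory than in inhibitory nuclei, Frs3 (-1.22), a docking protein of activated Trk receptors. Between neurons and non-neuronal nuclei, 2 were higher, the small GTPase Rit2 (1.89) and the adaptor Shc2 (1.75). There 4 were lower, and the largest ratios were those of the docking protein Gab1 (2.78 against 295 CPM; -6.73, -6.90 to -6.56), the adaptor Shc1 (-1.97) and the kinase Mapk3 (-1.27). Of 10 regulators of the Bdnf promoter, 9 were tested between excitatory and inhibitory nuclei, where 2 were higher. They were Bhlhe40 (1.57), a helix-loop-helix factor, and Npas4 (37.7 against 13.7 CPM; 1.46), an activity-induced factor that binds Bdnf promoters. Npas4 (1.85) and Mef2c (1.00) were higher and the repressor Rest (0.811 against 10.7 CPM; -3.72) was lower in neurons than in non-neuronal nuclei. Of 12 genes known to be induced by BDNF, several of which also respond to neuronal activity, 5 were higher and 2 lower in excitatory than in inhibitory nuclei. The higher ones with the largest ratios were Dusp5 (2.27), Homer1 (1.86) and Egr3 (1.85), and the lower ones were Npy (-1.93), a marker of some interneurons, and Spry4 (-1.26). In neurons against non-neuronal nuclei 2 of the 12 were higher, Homer1 (2.01) and Dusp5 (1.89), and 2 lower, Spry4 (-1.32) and Npy (-1.26).

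Nuclei with a Bdnf UMI were set beside nuclei without one in the same class, a comparison chosen after values had been seen. In L2/3 IT-like nuclei, 365 nuclei with a Bdnf UMI had 1350 CPM of Ntrk2, against 655 CPM in 984 nuclei without, a log2 ratio of 1.04 (1.00 to 1.09). Ntrk2 was the 1 of 4 members called higher there, beside 0.875% of all genes. The ratio had the same sign in all 4 libraries of each of the 5 classes examined, at 0.96 in L6 IT-like, 0.76 in L5 IT-like, 0.43 in L5 ET-like and 0.35 in L4/5 IT-like nuclei. Ntrk3 followed at 0.45 in L2/3 IT-like nuclei, and Sort1 stood at -0.21. Ntf3 stood at 8.21 CPM in L2/3 IT-like nuclei with a Bdnf UMI and at 13.6 CPM in those without (-0.73, -1.26 to -0.23), lower in all 4 libraries. Nuclei with a Bdnf UMI were deeper, with a median of 12699.0 against 10330.5 UMIs. At 1500 UMIs per nucleus the ratio of Ntrk2 in L2/3 IT-like nuclei was 1.02.

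Among the 12 genes induced by BDNF, Nptx2, a secreted pentraxin that clusters glutamate receptors, differed most. It stood at 42.4 against 6.34 CPM in L2/3 IT-like (2.74, 2.34 to 3.15), 58.5 against 11.8 in L6 IT-like (2.31), 22.4 against 6.34 in L4/5 IT-like (1.82) and 40.7 against 12.7 CPM in L5 IT-like nuclei (1.68). Of the genes tested, 6 of 10 were called higher in L2/3 IT-like nuclei, beside 0.875% of all genes, and 5 of 9 in L6 IT-like nuclei, beside 0.668%. In L4/5 IT-like and L5 IT-like nuclei 1 of 9 was, beside 0.236% and 0.464%, and in L5 ET-like nuclei 0 of 9, beside 0.178%. The calls in L2/3 IT-like nuclei were Arc, Egr2, Egr3, Spry2, Homer1 and Nptx2, and in L6 IT-like nuclei Egr3, Dusp6, Spry2, Homer1 and Nptx2. None was called lower. The nuclei were chosen by their Bdnf count, so these ratios are a description. At 1500 UMIs per nucleus the ratio of Nptx2 was 2.60 in the L2/3 IT-like class and 2.43 in the L6 IT-like class, but 0.67 in L5 IT-like nuclei, on 32 UMIs.

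**Figure D4:**
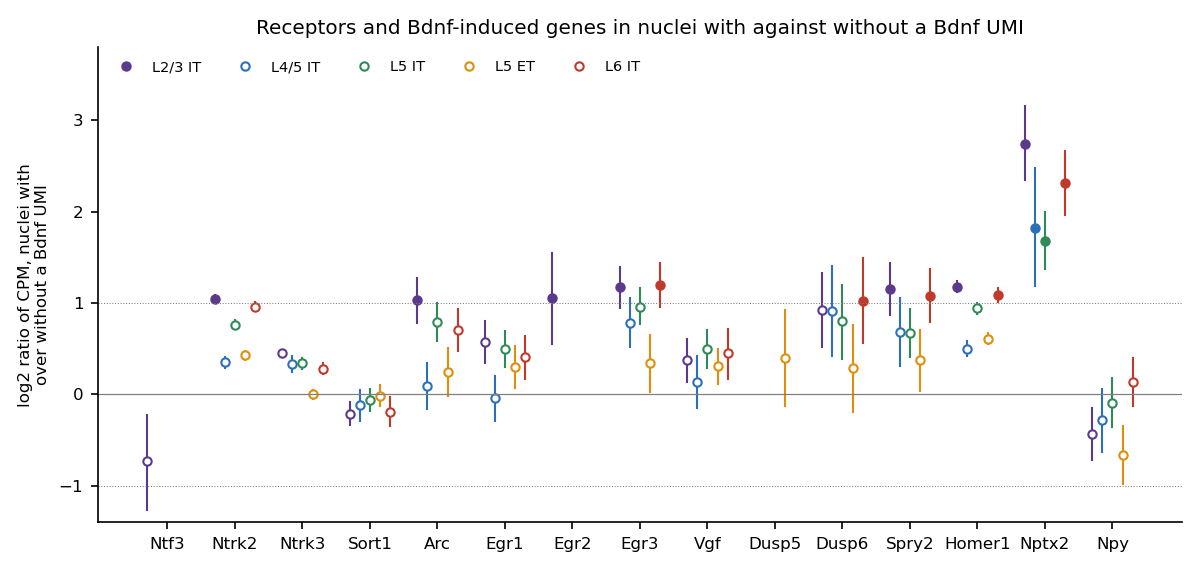
Log2 ratio of CPM in nuclei with a Bdnf UMI over nuclei without one (vertical axis) for the other 4 genes and the genes induced by BDNF (horizontal axis), in 5 excitatory classes, with 95% counting intervals. Filled points were called higher, open points were not called, dotted lines mark the ratios of 2 and 0.5, and genes with under 100 UMIs in a class are left out. Nptx2 had the highest ratio in each of the 4 classes in which it was tested.

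The reporter transcript TREmcherry was detected in 8.5 to 12.1% of nuclei of the 6 classes with at least 50 positive nuclei. In none of these classes was a member called higher or lower in nuclei with a reporter UMI than in nuclei without one (0 of 25 tested), beside 0.499% of all genes in L2/3 IT-, 0.745% in L4/5 IT-, 0.322% in L5 IT-, 0.703% in L5 ET-, 0.704% in L6 CT- and 1.05% in L6 IT-like nuclei. The highest log2 ratio, 0.45 (0.12 to 0.76), was that of Bdnf in the L5 ET-like class, with 61.7 CPM in reporter-positive and 45.3 CPM in reporter-negative nuclei, higher in 3 of 4 libraries. With each library left out this ratio ran from 0.01 to 0.66. The positive nuclei there numbered 13, 37, 3 and 38 in libraries 1 to 4. All L5 ET-like nuclei had 46.6, 67.7, 42.4 and 34.1 CPM of Bdnf in these libraries. Positive nuclei were also deeper, with a median of 15442 against 13822.5 UMIs. The lowest log2 ratio was that of Bdnf in L4/5 IT-like nuclei, at 52.6 against 69.4 CPM (-0.40, -0.88 to 0.05), lower in 4 of 4 libraries. Library 4 held 46 of the 65 reporter-positive nuclei there, and without it the ratio was -1.18 and called lower. In L6 IT-like nuclei the Bdnf ratio was -0.34, and -1.01 and called lower at 1500 UMIs per nucleus. Ntrk2 in L6 IT-like nuclei stood at 681 against 886 CPM (-0.38, -0.49 to -0.27), lower in 3 of 4 libraries.

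The genes whose levels followed each member most closely were sought over the 19 classes among 10638 genes, by Pearson's r of log2(CPM + 1). The classes share libraries and differ in depth, and with 19 points the values are descriptions. For Bdnf they were Rtn4r (0.937), the Nogo receptor, its relative Rtn4rl2 (0.909) and Ccdc155 (0.886). For Ntrk2 they were Trim9 (0.929), Shc3 (0.918), a Trk adaptor, and Hectd2os (0.915), and both Trim9 and Shc3 were highest in astrocyte-like nuclei. For Ntrk3 they were Sorbs2os (0.864), Sorbs2 (0.848) and Noxred1 (0.834), and for Sort1 Scap (0.809), Tex264 (0.797) and Chn1os1 (0.775). The closest to Ntf3 were Rnf19a (0.629), Casq1 (0.625) and Matn2 (0.624), all below the values for the other members. Between members, r was 0.53 for Ntrk2 and Ntrk3, 0.2 for Ntf3 and Ntrk3, and 0.22 for Bdnf and Ntrk2.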

How the data were processed

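Single-nucleus RNA libraries were counted by the authors with Cell Ranger 7.1.0 on mm10, per the submitters' processing notes, and deposited as 1 matrix of UMI counts per gene and barcode. Of 22402 barcodes in the deposited counts, 9132 were removed for fewer than 500 genes, fewer than 800 UMIs or over 5% mitochondrial UMIs (8638 for the last), and 289 with a Scrublet score over 0.25 were removed. Nuclei (median 8892.0 UMIs) were clustered with scanpy 1.11.5 at resolution 1.0 on 2000 variable genes, without the 5 members and the other 55 list genes, into 25 clusters. Clusters were named from marker lists by a scoring rule set after values had been seen. Counts were summed per class and library with numpy 2.4.6 and scipy 1.17.1, giving CPM with exact Poisson or binomial intervals. Named genes were the 5 members, in each list up to 3 called genes per direction with the largest ratios, and the 3 genes of highest r with each member. The code was tested on simulated data. The members and lists were chosen with earlier results of these data known. Some genes of the lists are not reported here.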

Additional observations from a re-analysis of the deposited data

Results flagged for a closer look

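Of 68 combinations of a gene and a class examined over 4 libraries, 5 had 1 library far from the other 3. Chance alone gives about 1 in 20, and 5 of 68 is not far above that rate. Bdnf stood at 90.6 CPM in L2/3 IT-like nuclei of library 3, above the others, and at 55.5 CPM in L6 IT-like nuclei of library 2, below the others. Sort1 stood at 77.7 CPM in all inhibitory nuclei and at 66.3 CPM in L6 CT-like nuclei of library 3, and at 104 CPM in microglia-like nuclei of library 4, each below the other libraries.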

How the results depend on the processing

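Over 13 alternative settings, 1219 values of 121 ratios were recomputed: 898 stayed within the counting interval of the reported value, 320 moved outside it and 1 lost its sign, and 17 of 27 called results kept their call under every setting that gave a value. Calls in excitatory subclasses numbered 4 after thinning to 1500 UMIs, where Ntf3 fell under 100 UMIs, and 6 with a mitochondrial limit of 1%, against 11. Calls between kinds of nuclei numbered 5 with the automatic doublet threshold, against 3. Calls in non-neuronal classes numbered 5 at resolution 0.5, where both precursor classes had no name, against 10. There the ratio of Ntrk3 in astrocyte-like nuclei was 0.0, against -1.23. Between nuclei with and without a reporter UMI the count was 1 after thinning and 0 to 1 with each library left out, against 0. The mitochondrial limits of 1% and 20% each left 6 classes without a name. A class without a name was missing from the comparison groups of that setting. No paired analysis was possible because the libraries could not be tied to samples. Depth limits Ntf3 most, with 267 UMIs in all nuclei.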
